A study of Mus musculus with 24 samples.

Results

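The genes described are the mouse genes for the opening steps of branched-chain amino acid (BCAA) breakdown and their regulators. They were taken by name, as the members of this pathway step, and number 8 of the 18777 genes measured: the transaminases Bcat1 and Bcat2, the branched-chain ketoacid dehydrogenase (BCKDH) subunits Bckdha, Bckdhb, Dbt and Dld, the BCKDH kinase Bckdk and the BCKDH phosphatase Ppm1k. RNA was sequenced from the hypothalamus of C57BL6 mice in 24 libraries, each from 1 animal. The mice ate one of 4 diets of equal energy and macronutrient content from 12 weeks of age until 15 months, and these diets held BCAAs at 20% (BCAA20), 50% (BCAA50), 100% (BCAA100, the chow control) or 200% (BCAA200) of the standard content. Each diet had 6 libraries, from 3 female and 3 male mice. No gene was altered in any group. The libraries of BCAA20, BCAA50 and BCAA200 were run in sequencing lane 1 and those of BCAA100 in lane 2, per the labels, so every comparison with BCAA100 is also a comparison between lanes, and diet and lane cannot be told apart there.

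Leucine, isoleucine and valine share the first steps of their breakdown. A transaminase moves the amino group to 2-oxoglutarate, which gives glutamate and a branched-chain ketoacid. BCAT1 is the cytosolic enzyme and BCAT2 the mitochondrial one, and in brain this exchange is known as a source of nitrogen for glutamate. The mitochondrial BCKDH complex then oxidises the ketoacid irreversibly: BCKDHA and BCKDHB form the decarboxylase (E1), DBT is the lipoate-bearing core (E2), and DLD is the dehydrogenase (E3) that the pyruvate, 2-oxoglutarate and glycine complexes also use. BCKDK phosphorylates E1 and shuts the complex off, and PPM1K removes the phosphate and switches it on.

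The start regions of 3 subunit genes are shown because Dld had the highest and steadiest level of the 8 genes, Bckdhb had the values that stood farthest apart, and Bckdha is the partner of Bckdhb within E1. Each runs from 250 bases before to 50 bases after the RefSeq start on GRCm38.p6, 5′ to 3′ on the gene's strand. The Dld region is chr12:31351422-31351721 on the minus strand, the Bckdhb region chr9:83924887-83925186 on the plus strand and the Bckdha region chr7:25658712-25659011 on the minus strand. Capitals mark matches, on either strand, to the CCAAT box CCAAT, the GC box GGGCGG and the NRF1 motif, which is marked in the Dld region by its longest run of capitals.

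Dld: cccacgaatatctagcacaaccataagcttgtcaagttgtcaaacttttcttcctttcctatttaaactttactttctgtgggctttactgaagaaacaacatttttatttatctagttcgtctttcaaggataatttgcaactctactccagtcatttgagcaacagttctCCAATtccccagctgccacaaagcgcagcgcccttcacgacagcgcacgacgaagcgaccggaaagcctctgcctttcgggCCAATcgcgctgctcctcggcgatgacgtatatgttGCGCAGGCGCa
Bckdhb: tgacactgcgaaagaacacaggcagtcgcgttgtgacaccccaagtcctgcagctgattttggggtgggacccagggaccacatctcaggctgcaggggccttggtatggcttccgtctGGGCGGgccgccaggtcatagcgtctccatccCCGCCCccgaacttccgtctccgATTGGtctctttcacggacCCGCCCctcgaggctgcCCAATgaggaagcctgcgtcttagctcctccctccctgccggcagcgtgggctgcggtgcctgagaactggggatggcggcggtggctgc
Bckdha: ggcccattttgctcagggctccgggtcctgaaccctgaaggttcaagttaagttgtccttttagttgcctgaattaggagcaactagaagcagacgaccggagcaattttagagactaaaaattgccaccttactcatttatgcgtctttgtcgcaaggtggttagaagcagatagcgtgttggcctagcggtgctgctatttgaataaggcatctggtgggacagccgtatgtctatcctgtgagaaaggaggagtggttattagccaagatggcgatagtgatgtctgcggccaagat

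The Dld region held 1 NRF1 match, at position 40 counted from the start as 1, and 2 CCAAT matches, at positions -78 and 4. NRF1 is a factor known for genes of mitochondrial respiration, and its motif was found in 4.60% of 32851 mouse start regions of the same length. The Bckdhb region held 3 GC box matches, at positions -131, -99 and -57, and 2 CCAAT matches, at positions -76 and -40. GC boxes were found in 35.7% and CCAAT boxes in 37.4% of all start regions. The Bckdha region held no match. Its RefSeq start lay 220 bases downstream of the GENCODE start, so most of the region lies within the GENCODE gene. Little sequence before the GENCODE start was searched. Over the 7 members with a RefSeq region (Dbt had no entry) no match overlapped another, and none was found for 4 other motifs: the E-box CACGTG (7.15% of all regions), the cAMP response element TGACGTCA (1.79%), the ERR half-site TCAAGGTCA (0.423%) and the C/EBP-ATF element TGATGNAAN (3.95%). The median GC content was 52.7% in the 7 members' regions and 52.7% in all regions.

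In GENCODE M21 on GRCm38, Bcat1 lies at chr6:144993835-145076184 on the minus strand, overlapping an rRNA gene and a pair of antisense genes, and Bcat2 at chr7:45570153-45589711 on the plus strand, overlapping the antisense gene 0610005C13Rik. Bckdha lies at chr7:25629946-25658981 on the minus strand and overlaps the protein-coding B3gnt8 on the plus strand. Dbt lies at chr3:116513070-116549981 on the plus strand with 2 overlapping genes, and Ppm1k at chr6:57506502-57535468 on the minus strand with 1. Dld, at chr12:31331277-31351453 on the minus strand, and Bckdk, at chr7:127904082-127910221 on the plus strand, overlap none. Of the overlapping genes, 1 shared the strand of Bcat1 and 1 that of Dbt, and 0 shared that of Bcat2, Bckdha or Ppm1k. Levels of the overlapped members are uncertain to the extent that reads were shared.

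Several libraries stood apart before any comparison. Slc17a7, the glutamate transporter of cortical and hippocampal neurons, stood at 6.23 FPKM in replicate 1 of the BCAA50 females, and at 3.99 and 12.6 FPKM in replicates 5 and 6 of the BCAA100 males, against at least 105.7 FPKM in the other 21 libraries. FPKM is the number of sequenced fragments scaled to transcript length and to all mapped fragments of the library. The library labelled BCAA20 male replicate 6 had 154.4 FPKM of Xist and 0 FPKM of Ddx3y, the pattern of the female libraries; these 4 libraries are called the 4 doubted libraries. Hcrt, the orexin gene of the lateral hypothalamus, was low in 3 libraries, with 0.257 FPKM for replicate 2 of the BCAA50 females, 0 for replicate 6 of the BCAA100 males and 1.65 for replicate 2 of the BCAA200 females, against 13.3 FPKM or more in the others. The summed level of 14 markers of hypothalamic nuclei ran from 338.6 to 488.6 FPKM in BCAA20, 104.7 to 1014 in BCAA50, 6.52 to 1034 in BCAA100 and 130.8 to 616.2 in BCAA200. The summed level of 12 cortex and hippocampus markers ran from 228.6 to 328.1, 50.8 to 349.2, 58.1 to 329.2 and 205.7 to 423.5 FPKM in the same order. No marker of either list was at 0 in all libraries. Scores, the mean z score of a list's tested genes, also set these libraries apart. On the 2 tested thalamus markers BCAA100 male replicate 6 ranked 1 of 24 (3.00), BCAA50 female replicate 1 ranked 2 (2.68) and BCAA100 male replicate 5 ranked 7 (0.06). For hypothalamic nuclei they ranked 24 (-2.34), 2 (1.08) and 1 (1.52) in the same order.

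All 8 genes passed the filter of a mean of at least 1 FPKM, as did 13806 genes in all. Their levels differed by over an order of magnitude. Over the 24 libraries, Dld averaged 41.0 ± 2.92 FPKM, Bckdha 17.6 ± 2.11, Bcat1 14.9 ± 4.87, Bckdhb 10.1 ± 3.36, Bckdk 8.47 ± 0.734, Ppm1k 7.93 ± 1.14, Dbt 6.20 ± 0.635 and Bcat2 2.58 ± 1.18 FPKM (SD, n = 24 each). These values are per length, so levels of different genes can be set side by side. Dld exceeded Bckdha in 24 of 24 libraries, and Dbt exceeded Bcat2 in 24 of 24. The neighbours between were less separate: Bckdha exceeded Bcat1 in 19 libraries, Bcat1 exceeded Bckdhb in 21, Bckdhb exceeded Bckdk in 22, Ppm1k exceeded Dbt in 22, and Bckdk exceeded Ppm1k in 17 of 24.

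The genes also differed in how much they varied between libraries. On the log2(FPKM + 0.5) scale the SD over the 24 libraries was 0.10 for Dld, 0.12 for Bckdk, 0.14 for Dbt and 0.16 for Bckdha, against a median of 0.23 over all genes tested. Only 3.19% of genes had a smaller SD than Dld and 7.42% a smaller one than Bckdk. Ppm1k, at 0.22, lay near the middle of all genes. The transaminases varied more, with 0.42 for Bcat1 and 0.54 for Bcat2. Bckdhb had the largest SD of the 8, at 1.096, above that of 98.9% of genes, and this came from 2 libraries described below.

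**Figure D1:**
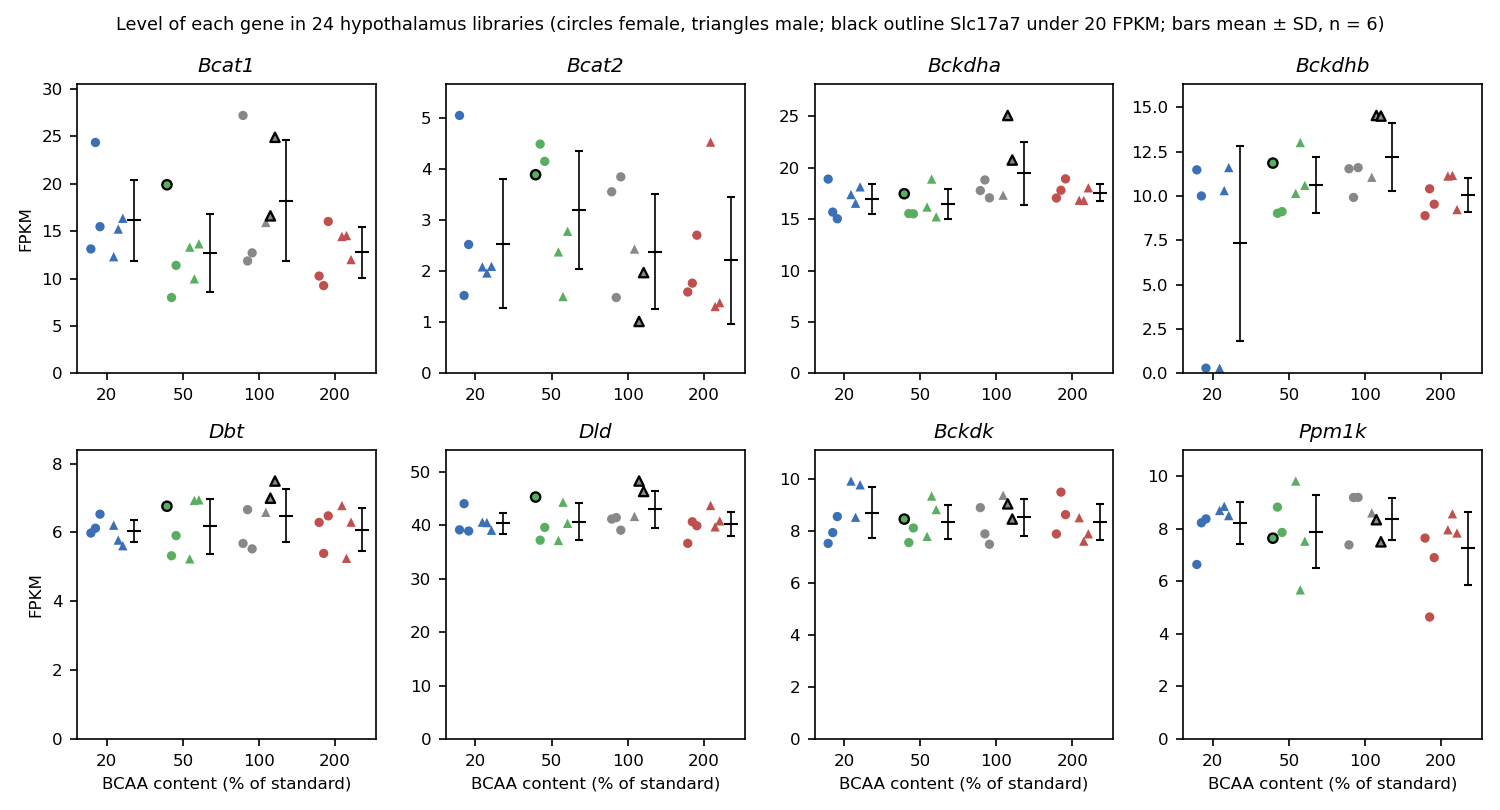
Level of each of the 8 genes in FPKM (vertical axes, each from 0) against the BCAA content of the diet in % of standard (horizontal axes). Each circle is a female and each triangle a male library; a black outline marks Slc17a7 under 20 FPKM, and the bars beside each group show the mean ± SD (n = 6). The groups overlap for every gene, and 2 BCAA20 libraries have Bckdhb near 0.3 FPKM.

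For the transaminases, no comparison between diets passed the test across all genes. Bcat1 had a lowest, median and highest level of 12.3, 15.3 and 24.3 FPKM on BCAA20, 8.001, 12.3 and 19.9 on BCAA50, 11.8, 16.3 and 27.2 on BCAA100, and 9.25, 13.2 and 16.0 on BCAA200. The 4 ranges overlapped, and the 3 highest libraries were BCAA100 female replicate 1, BCAA100 male replicate 6 and BCAA20 female replicate 2. Bcat2 had 1.52, 2.09 and 5.04 FPKM on BCAA20, 1.504, 3.33 and 4.48 on BCAA50, 1.02, 2.20 and 3.84 on BCAA100, and 1.31, 1.68 and 4.52 on BCAA200. Each diet held libraries near the bottom and near the top of the Bcat2 range. Bcat1 was above Bcat2 in 24 of 24 libraries, and their ratio ran from 1.78 to 16.3 with a mean of 6.996 ± 3.79 (SD).

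Of the E1 pair, Bckdha had overlapping ranges on all diets. It had a lowest, median and highest level of 15.0, 17.0 and 18.9 FPKM on BCAA20, 15.2, 15.9 and 18.9 on BCAA50, 17.1, 18.3 and 25.1 on BCAA100, and 16.8, 17.4 and 18.9 on BCAA200. Only BCAA100 male replicates 5 and 6, at 25.1 and 20.7 FPKM, lay above the highest value of the other diets. Both are among the libraries with low Slc17a7, and each also stood at an end of the hypothalamic nuclei score. The part of tissue content in the Bckdha level was not tested. In bulk tissue, fewer cells of a type and less RNA per cell cannot be told apart.

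Bckdhb was at 11.5, 10.01 and 0.303 FPKM in BCAA20 females and 0.297, 10.3 and 11.6 FPKM in BCAA20 males. Its lowest, median and highest levels were 9.03, 10.4 and 13.0 FPKM on BCAA50, 9.93, 11.6 and 14.5 on BCAA100, and 8.90, 9.98 and 11.2 on BCAA200. The values in BCAA20 female replicate 3 and BCAA20 male replicate 4 thus stood far below those of the other 22 libraries, which ran from 8.90 to 14.5 FPKM. Bckdha, the partner of Bckdhb in E1, was at 15.0 and 17.4 FPKM in the same libraries, and Dbt at 6.53 and 6.21. Without these 2 libraries the SD of Bckdhb on the log2 scale was 0.19, which is above that of 35.3% of genes.

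Such a drop was rare in these files. Of 8872 genes with a median of at least 5 FPKM, 123 genes (1.39%) had 1 or more libraries under 10% of their median, and 23 of them had exactly 2. Bckdhb was the only gene low in both BCAA20 female replicate 3 and BCAA20 male replicate 4, in which 10 and 9 such genes were low. In GENCODE M21 Bckdhb spans 9:83925145-84124240 on the plus strand and overlaps 3 other annotated genes: an snRNA, a processed pseudogene and an antisense gene. All 3 lie on the minus strand. The sources used here do not say how reads over such overlaps were assigned, and the cause of the low values was not tested.

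The E2 core Dbt had a lowest, median and highest level of 5.61, 6.05 and 6.53 FPKM on BCAA20, 5.23, 6.33 and 6.95 on BCAA50, 5.52, 6.62 and 7.49 on BCAA100, and 5.25, 6.29 and 6.78 on BCAA200. The diets overlapped over most of their ranges. The E3 gene Dld had 38.9, 39.8 and 44.0 FPKM on BCAA20, 37.1, 39.9 and 45.2 on BCAA50, 39.1, 41.5 and 48.2 on BCAA100, and 36.6, 40.3 and 43.7 on BCAA200. The 3 libraries with low Slc17a7 had Dld at 45.2, 48.2 and 46.3 FPKM, above the 36.6 to 44.3 FPKM of the other 21. In BCAA100 male replicates 5 and 6 each of Dld, Bckdha, Bckdhb and Dbt was at its highest or second highest level of the 24 libraries. Dld per Dbt was 6.66 ± 0.504 (SD, n = 24), with diet means between 6.61 and 6.70.

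The kinase and phosphatase were close in level. Bckdk had a lowest, median and highest level of 7.51, 8.53 and 9.90 FPKM on BCAA20, 7.54, 8.27 and 9.33 on BCAA50, 7.48, 8.66 and 9.36 on BCAA100, and 7.60, 8.19 and 9.48 on BCAA200. Ppm1k had 6.64, 8.43 and 8.85 FPKM on BCAA20, 5.67, 7.74 and 9.81 on BCAA50, 7.38, 8.47 and 9.19 on BCAA100, and 4.64, 7.74 and 8.56 on BCAA200. The lowest Ppm1k level was that of BCAA200 female replicate 2. The ratio of Bckdk to Ppm1k averaged 1.06 ± 0.0891 in BCAA20 libraries, 1.101 ± 0.304 in BCAA50 libraries, 1.03 ± 0.156 in BCAA100 libraries and 1.21 ± 0.423 in BCAA200 libraries (SD, n = 6 each), and it was above 1 in 17 of 24 libraries.

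The first question the design asks is whether BCAA supply in the diet moved these genes, and the lane 1 diets answer it without a change of lane. In limma fits on log2(FPKM + 0.5) with Benjamini-Hochberg adjustment over 13806 genes, 0 of 8 members reached an adjusted p under 0.05 in BCAA200 against BCAA20, where 0% of all genes did. The counts were the same for BCAA200 against BCAA50 (0 of 8; 0%) and for BCAA50 against BCAA20 (0 of 8; 0%). At an unadjusted p under 0.05 the members again gave 0 of 8 in each, beside 2.89%, 2.52% and 2.68% of all genes. Members above 0 numbered 3, 2 and 4 of 8, beside 44.9%, 46.9% and 46.9% of all genes. In none of these comparisons did the ranges of the diets part for a member; they parted for 0.145%, 0.0869% and 0.116% of genes.

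How far the data limit a diet effect differs by gene. For BCAA200 against BCAA20, the widest difference in BCAA content, the log2 change of Dld was -0.01 (unadjusted 95% interval -0.13 to 0.12), that of Dbt 0.01 (-0.18 to 0.19), that of Bckdk -0.06 (-0.20 to 0.09) and that of Bckdha 0.05 (-0.12 to 0.23). Ppm1k was at -0.19 (-0.44 to 0.07). For the transaminases the intervals were wider, with -0.32 for Bcat1 (-0.80 to 0.16) and -0.18 for Bcat2 (-0.77 to 0.41). These 3 values hang on single libraries: Ppm1k was at -0.09 without BCAA200 female replicate 2, Bcat1 at -0.19 without BCAA20 female replicate 2, and Bcat2 at 0.01 without BCAA20 female replicate 1 and -0.43 without BCAA200 male replicate 4. A p above the threshold does not show that the diets act alike, and these intervals give the sizes that the data allow.

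Bckdhb had the largest log2 changes of the 8, and they rested on its 2 low BCAA20 libraries. BCAA200 against BCAA20 gave 1.17 ± 0.60 (SE; unadjusted p = 0.0659, adjusted p = 1.00 by limma), and BCAA50 against BCAA20 gave 1.24 ± 0.60 (unadjusted p = 0.0527). Without BCAA20 female replicate 3 and BCAA20 male replicate 4 the same changes were -0.11 and -0.04. Leaving out BCAA20 male replicate 4 alone gave 0.53 and 0.60.

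**Figure D2:**
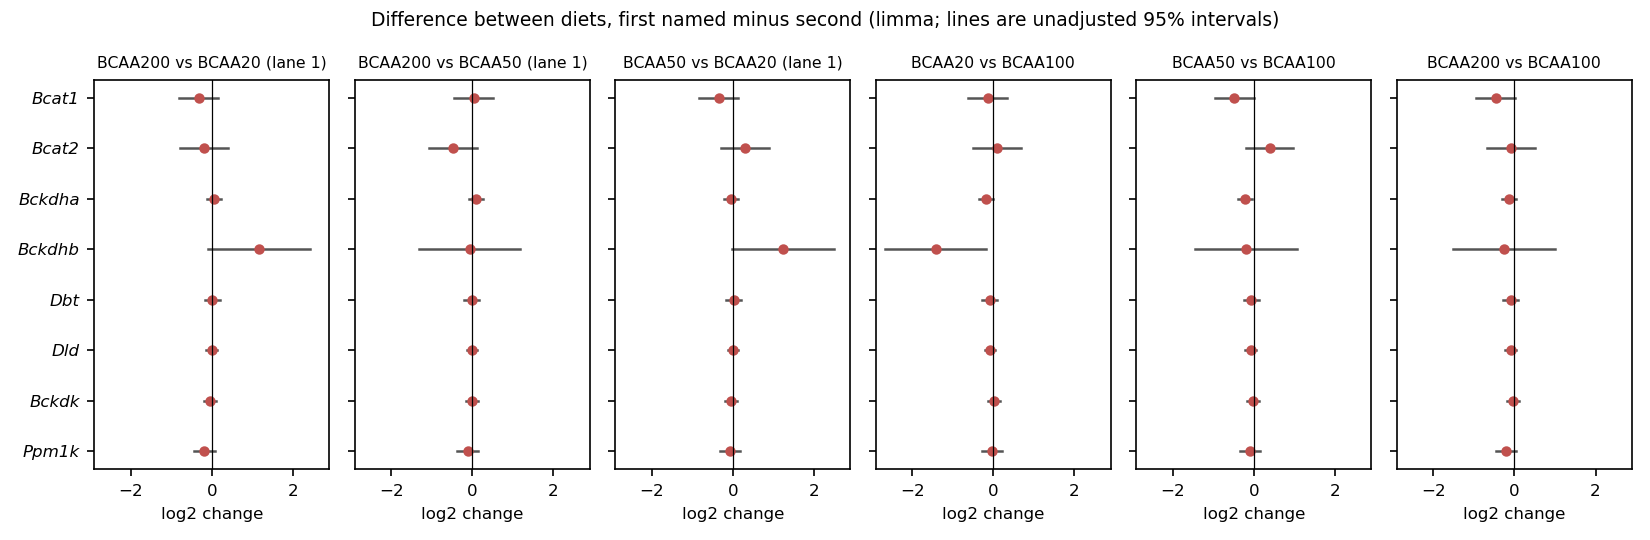
Log2 change of each of the 8 genes (rows) in the 6 comparisons between diets (panels), first-named diet minus second. Points are limma estimates and lines their unadjusted 95% intervals; Bckdhb has the widest intervals, and those of Dld and Bckdk stay within 0.3 of 0.

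Slopes on BCAA content gave no call for a member. Over the 18 lane 1 libraries the slope per doubling of BCAA content lay between -0.09 for Bcat1 and 0.32 for Bckdhb; 0 of 8 members had an unadjusted p under 0.05, beside 3.3% of genes, and 0 of 8 (0% of genes) an adjusted one. Slopes above 0 numbered 3 of 8, beside 45% of genes. Over all 4 diets the slope of Bckdhb was 0.36 ± 0.16 (SE; unadjusted p = 0.0396, adjusted p = 1.00 by limma), which made 1 of 8 members beside 2.25% of genes. Without its 2 low libraries the Bckdhb slope was -0.01. The other 7 slopes over 4 diets lay between -0.08 and 0.03, and 4 of 8 members were above 0, beside 49.2% of genes.

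BCAA intake of each animal, given in the deposited table without a unit, formed 4 clusters that followed the diets: 0.417 ± 0.0344 for BCAA20 mice, 1.01 ± 0.0808 for BCAA50 mice, 2.12 ± 0.272 for BCAA100 mice and 5.26 ± 0.559 for BCAA200 mice (SD, n = 6 each). In the authors' deposited table the Pearson coefficient of expression with intake ran from -0.27 for Ppm1k to 0.17 for Bckdhb, with unadjusted p between 0.203 and 0.973. By that deposited table of the authors, none (0 of 8) of the members and 518 of 18777 genes (2.76%) had p under 0.05. Since intake repeats the diets, a slope within diet and sex was fitted as well. There 0 of 8 members had an unadjusted p under 0.05 (3.03% of genes), 0 of 8 (0%) an adjusted one, and 4 of 8 were above 0 (50.4%). Intake varied little within a group, and the intervals were wide: for Dld the log2 change per doubling of intake was -0.02 (-0.44 to 0.40), for Bckdha 0.03 (-0.53 to 0.59), for Bcat2 0.67 (-1.22 to 2.57) and for Bckdhb -2.34 (-6.25 to 1.58), the last being 0.19 without its 2 low libraries.

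Against the standard diet, where lane and diet are confounded, more of all genes had an unadjusted p under 0.05. BCAA20 against BCAA100 gave 0 of 8 members at an adjusted p under 0.05 (0% of genes), and 2 of 8 at an unadjusted one, beside 7.09%. These were Bckdha, at -0.19 ± 0.08 (SE; unadjusted p = 0.0346, adjusted p = 0.676 by limma), and Bckdhb, at -1.43 ± 0.60 (unadjusted p = 0.0279, adjusted p = 0.668 by limma). Without its 2 low libraries Bckdhb was at -0.15, and without the 4 doubted libraries Bckdha was at -0.07.

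BCAA50 against BCAA100 again gave 0 of 8 members (0% of genes) at an adjusted p under 0.05 and 2 of 8 at an unadjusted one, beside 7.65%. Bckdha was at -0.23 ± 0.08 (SE; unadjusted p = 0.0124, adjusted p = 0.539 by limma) and Bcat1 at -0.49 ± 0.23 (unadjusted p = 0.0469, adjusted p = 0.640). Without the 4 doubted libraries these were -0.12 and -0.54. Leaving out BCAA100 female replicate 1, the library with the highest Bcat1, gave -0.30 for Bcat1.

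BCAA200 against BCAA100 gave 0 of 8 members at an adjusted p under 0.05 (0.0145% of genes) and 0 of 8 at an unadjusted one (11.7%). All 8 log2 changes were below 0, with a median of -0.11 over the members and -0.05 over all genes, of which 37.4% were above 0. Bcat1 was at -0.45 (-0.94 to 0.03), Bckdhb at -0.26 (-1.51 to 1.00), Ppm1k at -0.21 (-0.46 to 0.04), Bckdha at -0.13 (-0.30 to 0.04), and the other 4 between -0.09 and -0.03. Leaving out BCAA100 female replicate 1 gave -0.27 for Bcat1 and 0.003 for Bckdk, leaving out BCAA200 female replicate 2 gave -0.11 for Ppm1k, leaving out BCAA100 male replicate 5 gave -0.07 for Bckdha, and leaving out BCAA200 male replicate 5 gave 0.03 for Bcat2, so the count below 0 also hangs on single libraries. Without the 4 doubted libraries Bckdha was at -0.003, Dld at -0.03 and Dbt at -0.04. With the 2 low Bckdhb libraries left out of the fit, whose spread then fell, Bckdhb in this comparison had an unadjusted p of 0.018 and an adjusted p of 0.376 by limma at the same change of -0.26.

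Since the same 6 BCAA100 libraries enter all 3 of these comparisons, likeness between them is no separate evidence. Members above 0 numbered 2 of 8 for BCAA20, 1 of 8 for BCAA50 and 0 of 8 for BCAA200, beside 40%, 38.1% and 37.4% of genes. The ranges of the diets parted for 0 of 8 members in each, and for 0.369%, 0.225% and 0.565% of genes. Oligodendrocyte markers lay on the same side in these comparisons: 0 of 12 were above 0 in each, with medians of -0.27 for BCAA20, -0.12 for BCAA50 and -0.33 for BCAA200. Their summed level ran from 1444 to 1975 FPKM on BCAA20, 1198 to 2934 on BCAA50, 1378 to 4145 on BCAA100 and 774 to 1964 on BCAA200. Striatum markers also lay mostly below 0, with 1, 0 and 3 of 10 above 0 and medians of -0.53, -0.71 and -0.22. The 2 tested thalamus markers had medians of -0.69, -0.14 and -0.47. Cortex and hippocampus markers lay mostly on the other side, with 10, 10 and 9 of 11 tested genes above 0 and medians of 0.74, 0.61 and 0.80. The part of any such tissue content in the members' changes was not tested.

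No member passed the test between male and female mice. With the sexes set against each other over all diets, 0 of 8 members had an adjusted p under 0.05 (0.0652% of genes) and 0 of 8 an unadjusted one (4.27%). Bcat2 averaged 2.12 ± 0.915 FPKM in males and 3.05 ± 1.27 in females (SD, n = 12 each), a log2 change of -0.41 ± 0.20 (SE; unadjusted p = 0.052, adjusted p = 0.941 by limma). The other 7 members lay between 0.05 and 0.14, so that 7 of 8 members were above 0, as were 58.8% of all genes. The 12 male libraries include BCAA20 male replicate 6, with its female pattern of Xist and Ddx3y; without it the Bcat2 change was -0.42 (unadjusted p = 0.064) and that of Bckdhb -0.03. With any 1 library left out the Bcat2 change lay between -0.53 and -0.32. Bckdhb was at -0.18 without BCAA20 female replicate 3, and Bcat1 at -0.02 without BCAA50 female replicate 2.

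The sexes were also compared in their response to BCAA200 against BCAA20. Here 1 of 8 members, Bckdk, had an unadjusted p under 0.05, beside 3.56% of genes, 0 of 8 (0%) an adjusted one, and 6 of 8 were above 0 (53.9%). In males Bckdk averaged 7.99 ± 0.460 FPKM on BCAA200 and 9.39 ± 0.764 on BCAA20, and in females 8.66 ± 0.804 on BCAA200 and 7.99 ± 0.519 on BCAA20 (SD, n = 3 each). The difference between the sexes was -0.33 ± 0.14 on the log2 scale (SE; unadjusted p = 0.032, adjusted p = 1.00 by limma). It was -0.30 (unadjusted p = 0.0763) without the 4 doubted libraries, one of which carries a male label in this comparison.

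Next, it was asked which of the 8 genes varied together from library to library. Of 28 pairs, 2 had a Pearson coefficient with an adjusted permutation p under 0.05. Dbt and Dld, the E2 and E3 genes, had r = 0.67 (adjusted p = 0.00924) and rho = 0.66 (adjusted p = 0.021) over 24 libraries by permutation tests. The coefficient was 0.57 without the 2 libraries farthest from the median of Dbt and 0.58 on residuals from the group means (rho = 0.60). It was 0.56 within lane 1 (adjusted p = 0.328) and 0.51 without the 4 doubted libraries (adjusted p = 0.434, permutation tests). The sign held in each, and the test threshold was not reached in the last 2 permutation tests. For residuals no p is given, because the permutations did not allow for the 8 group means already subtracted.

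Bckdha and Dld had r = 0.61 (adjusted p = 0.026) and rho = 0.48 (adjusted p = 0.132) by permutation tests. This rested on few libraries: r was 0.25 without the 2 farthest, 0.22 within lane 1 and 0.27 without the 4 doubted libraries. It was 0.52 on residuals from the group means and 0.59 without the 2 low Bckdhb libraries (adjusted p = 0.0247, permutation test). With the 2 low Bckdhb libraries left out, Bckdhb joined the pairs that passed. Its r with Dld was 0.72 (adjusted p = 0.00336) and with Bckdha 0.68 (adjusted p = 0.00383, permutation tests over 22 libraries). The rho of 0.52 and 0.50 did not pass (adjusted p = 0.124 each, permutation tests). These libraries were chosen by their Bckdhb values after seeing the data. BCAA100 male replicates 5 and 6, which held the 2 highest levels of Bckdhb, Dld and Bckdha, stayed in, and no fit left out both sets. Bckdk and Ppm1k, which act on E1 in opposite directions, had r = -0.34 (adjusted p = 0.39) and rho = -0.28 (adjusted p = 0.337, permutation tests). On residuals from the group means they had r = -0.59 and rho = -0.52, with no p given, since the permutations did not allow for the group means. Their r was -0.34 within lane 1 (adjusted p = 0.675) and -0.44 without the 4 doubted libraries (adjusted p = 0.434, permutation tests). Bcat2 did not pass with any other member, its coefficients lying between -0.40 and 0.03.

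Cell-type and regional markers were set beside the members by 10 marker scores, each the mean z score of a list's tested genes, which makes 80 relations. Of these, 2 had a Pearson coefficient with an adjusted permutation p under 0.05. Dbt followed the oligodendrocyte score, with r = 0.68 (adjusted p = 0.004) and rho = 0.68 (adjusted p = 0.0184) by permutation tests over 24 libraries. It was 0.59 without the 2 farthest libraries, 0.68 within lane 1 (adjusted p = 0.0432; rho = 0.73, adjusted p = 0.0704) and 0.59 without the 4 doubted libraries (adjusted p = 0.153). The second relation was between Dld and the cortex and hippocampus score. The 3 libraries with low Slc17a7 form a cluster of their own on that score, so no pooled coefficient is given; over the 20 libraries that are not doubted r was -0.13 and rho -0.10 (adjusted p = 0.952 and 0.995, permutation tests). By rank, the relations that passed were that of Dbt with oligodendrocytes and that of Bcat1 with the cortex and hippocampus score (adjusted p = 0.0184 for rho over 24 libraries, permutation test), on which the same 3 libraries sit apart. Over the 20 libraries that are not doubted Bcat1 had r = -0.48 and rho = -0.54 on that score (adjusted p = 0.628 and 0.589, permutation tests).

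**Figure D3:**
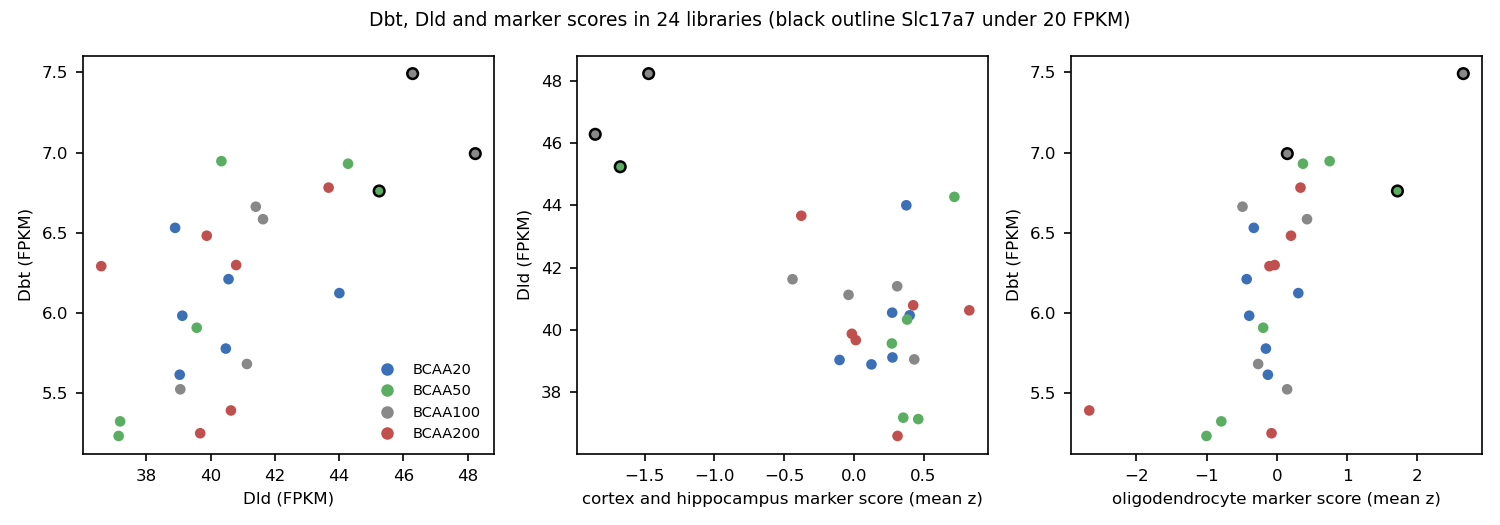
Dbt against Dld (left, both in FPKM), Dld in FPKM against the cortex and hippocampus marker score (middle) and Dbt in FPKM against the oligodendrocyte marker score (right), scores being mean z scores. Each point is 1 of 24 libraries coloured by diet; a black outline marks Slc17a7 under 20 FPKM, and these 3 libraries sit apart at the left of the middle panel and at the top of its Dld range.

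The genes whose levels followed each member most closely are given as a description, by Pearson r of log2(FPKM + 0.5) over 24 libraries that share 2 lanes and unequal tissue content. Dld was closest to Psmd12, a proteasome subunit (r = 0.88), Slc25a11, the mitochondrial 2-oxoglutarate carrier (r = 0.88), and Chmp4b, an ESCRT subunit (r = 0.87). It had 354 genes with r above 0.7, against 106 for Bcat1, 76 for Ppm1k, 53 for Bckdha, 30 for Dbt, 5 for Bckdhb, 2 for Bcat2 and 0 for Bckdk. Dbt was closest to Pop4 (0.83), Rpl18-ps2 (0.78) and Echdc1 (0.77), and Dld held rank 58 for Dbt with predicted genes left out. Bckdha was closest to Pmm1, Polr2c and Cops6 (0.79 each), with 0.67, 0.62 and 0.49 over the 18 lane 1 libraries; for the closest genes of the other members the lane 1 coefficient lay between 0.54 and 0.86. For Ppm1k, Bend4 and Rbm27 had 0.85 each. Bcat1 was closest to Fam131c (0.81), Cercam (0.79) and Poglut1 (0.79), and Bcat2 to Gmeb2 (0.74), Ern1 (0.72) and Srrm4 (0.67). Bckdk was closest to Rnpc3, Pagr1a and Bloc1s1 (0.70, 0.70 and 0.69). For Bckdhb, Ubxn6, Mtfr1l and Cpped1 had 0.75 each, coefficients in which its 2 low libraries enter.

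The steps after BCKDH and the partners of these enzymes were read from 7 further lists. Within lane 1, 0 tested genes of any list passed over all genes, and only Glul, glutamine synthetase (0.27 ± 0.12 in BCAA200 against BCAA20, unadjusted p = 0.040), Hibch, of valine breakdown (-0.65 ± 0.26 in BCAA200 against BCAA50, unadjusted p = 0.0224), and Lipt2, of lipoate attachment (-0.28 ± 0.12 in BCAA50 against BCAA20, unadjusted p = 0.0355), fell under an unadjusted p of 0.05 by limma. Of all genes 2.89%, 2.52% and 2.68% fell under it in these comparisons, in the same order. For BCAA200 against BCAA20 the medians were -0.03 for the 8 leucine branch genes, -0.02 for the 17 tested genes of the isoleucine and valine branches and 0.04 for the 7 tested transport genes, against -0.01 for all genes.

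Against BCAA100 the lists gave 0 adjusted calls as well. In the leucine branch 8 of 8 genes were below 0 on BCAA20, 7 of 8 on BCAA50 and 7 of 8 on BCAA200, with medians of -0.18, -0.25 and -0.21, against -0.04, -0.04 and -0.05 for all genes. The lowest unadjusted p belonged to Mccc2, a subunit of methylcrotonyl-CoA carboxylase, at -0.37 ± 0.08, -0.26 ± 0.08 and -0.28 ± 0.08 (SE; adjusted p = 0.454, 0.516 and 0.242 by limma). In the isoleucine and valine branches 13, 14 and 13 of 17 genes were below 0. Of all genes 40%, 38.1% and 37.4% were above 0. Echs1, the enoyl-CoA hydratase, was at -0.22 ± 0.09, -0.25 ± 0.09 and -0.39 ± 0.09, and Hibadh, of valine breakdown, at -0.19 ± 0.07, -0.17 ± 0.07 and -0.28 ± 0.07 (adjusted p between 0.142 and 0.642 by limma).

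Of the transport genes 6, 5 and 5 of 7 were above 0, with medians of 0.10, 0.14 and 0.14. Of all genes 40%, 38.1% and 37.4% were above 0 in the same comparisons, with medians of -0.04, -0.04 and -0.05. Slc7a8, a light chain of large neutral amino acid exchange, was at 0.27 ± 0.10 on BCAA20, 0.31 ± 0.10 on BCAA50 and 0.36 ± 0.10 on BCAA200 (SE; adjusted p between 0.187 and 0.605 by limma). Pdk1, a kinase of the pyruvate dehydrogenase complex and a relative of Bckdk, was at 0.51 ± 0.12, 0.42 ± 0.12 and 0.45 ± 0.12 (adjusted p between 0.197 and 0.485 by limma). Bckdk itself was at 0.03, -0.03 and -0.03 in the same comparisons. Of the 11 genes of the sister lipoamide complexes, which share Dld, 9, 10 and 10 were below 0, with medians of -0.08, -0.03 and -0.06. On BCAA50 this median lay above that of all genes. Of the 10 glutamate partners 8, 6 and 7 were below 0, with Gad1, which makes GABA from glutamate, at -0.53 ± 0.15, -0.41 ± 0.15 and -0.48 ± 0.15 (adjusted p between 0.250 and 0.539 by limma). The lipoate attachment list has 3 genes, of which 2 were above 0 in each comparison.

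Other list genes came under an unadjusted p of 0.05 in 1 or more comparisons, all with an adjusted p of 0.238 or more by limma. Against BCAA100, 7.09% of all genes did so on BCAA20, 7.65% on BCAA50 and 11.7% on BCAA200. Ivd, which oxidises isovaleryl-CoA, was at -0.24 on BCAA50, and Acat1, the mitochondrial thiolase, at -0.20 on BCAA200. Slc6a17, a vesicular transporter of neutral amino acids, was at 0.14 on both BCAA50 and BCAA200, and Pdk2 at 0.19 and 0.23 on these diets. Dhtkd1 was at -0.33 on each of them, and Abat, which breaks down GABA, at -0.29 and -0.41. Lipt2 was at 0.29 on BCAA20, and Lias, lipoic acid synthase, at -0.27 on BCAA50. Between the sexes, where 4.27% of all genes did so, Hadh was at 0.15 and Dlst, the core of the 2-oxoglutarate complex, at 0.66 (male minus female). The difference between the sexes in BCAA200 against BCAA20 was 1.71 for Hibch and -0.43 for Hsd17b10 (3.56% of genes). BCAA20 male replicate 6, with its female pattern of Xist and Ddx3y, counts as male in both. The slope of Glul over 4 diets was 0.08 (2.25% of genes). The slopes on intake within diet were -0.52 for Pdk2 and 1.18 for Gad1 (3.03% of genes).

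**Figure D4:**
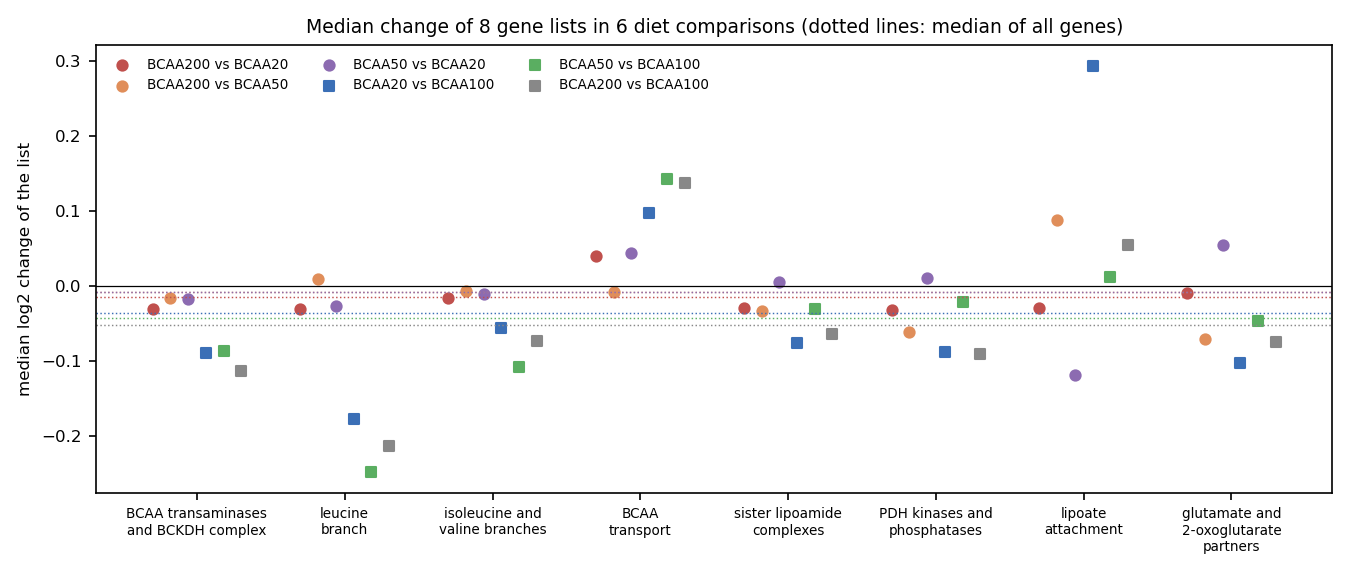
Median log2 change (vertical axis) of the 8 members and of 7 further gene lists (horizontal axis) in the 6 comparisons between diets, first-named diet minus second. Circles are pairs within lane 1, squares comparisons with BCAA100, and dotted lines the median over all genes in the matching colour; the leucine branch has its 3 squares between -0.18 and -0.25.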

How the data were processed

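RNA of 24 mouse hypothalamus libraries, prepared with a stranded TruSeq kit per the labels, was quantified by the authors as FPKM per gene in 1 deposited table. The submitters' processing notes name TopHat2 2.0.14, StringTie 1.2.4 and the build GRCm38; the sources used here name neither the annotation nor the strand setting. The same table holds the authors' deposited Pearson R, which is a score between -1 and 1 for each gene against BCAA intake, and its unadjusted p-value, as well as the intake of each animal, a score without a stated unit. FPKM carries no depth, so depth is unknown and no counting interval is given. The values of 1038 low genes were divided by each gene's lowest value over the libraries. Of these ratios 11.1% lay no more than 5% of a unit from a whole number, against 10% by even spread. A single read has another FPKM in a library of another depth, so this check could not show the depth.

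The members and all gene and marker lists were chosen with earlier results of these data known. FPKM was tested as log2(FPKM + 0.5) with limma 3.58.1 in R 4.3.3 for genes averaging 1 FPKM or more, with robust moderation towards a trend on mean level. Diets and sexes were compared over 8 diet-by-sex group means. The slopes on BCAA content were fitted with sex and log2 of the content, and the slope on intake with log2 intake beside the group means. Tests were two-sided and adjusted over 13806 genes by Benjamini-Hochberg, and fold changes on this scale understate those of low genes. The script was tested on simulated data. Correlations used 100000 permutations, with 28 and 80 relations adjusted as separate families. Named besides the members were, per list, at most 2 genes with the lowest unadjusted p under 0.05, and 3 genes closest to each member, leaving out predicted genes. Of the genes this rule names, 2 are not reported here. Replicates are separate animals, per the series' design text. Positions are from GENCODE M21 and start regions from RefSeq, both GRCm38.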

Additional observations from a re-analysis of the deposited data

Results flagged for a closer look

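Within the groups of 6 libraries, 32 gene and diet combinations were checked for a library set apart from its group by Dixon's criterion, which chance meets in about 1 in 20; 4 did, and all 4 were BCAA20 females. Bcat1 was at 24.3 FPKM in BCAA20 female replicate 2, the highest of its group by 0.664 of the group's range. Dld was at 44.0 FPKM in the same library, highest by 0.675 of the range. Bcat2 was at 5.04 FPKM in BCAA20 female replicate 1, highest by 0.717 of the range, and Ppm1k at 6.64 FPKM in that library, lowest by 0.716. The low Bckdhb values of BCAA20 did not meet the criterion, since 2 libraries shared them.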

How the results depend on the processing

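No member reached an adjusted p under 0.05 in any of the 11 comparisons as reported, and none did under any of the 40 alternatives run (other pseudocounts, filters, scalings, fits, covariates and left-out libraries): of 3317 values 0 calls were gained or lost, and the lowest adjusted p of a member was 0.172, for Bckdha in BCAA50 against BCAA100 with array weights by limma. Of 228 values whose fit as reported had an unadjusted p under 0.05, 66 lost it and 1 changed sign; of the other 3089, 38 gained it. Pairs of members whose Pearson coefficient passed numbered 2 as reported, 0 within lane 1, 0 without the 4 doubted libraries and 4 without the 2 low Bckdhb libraries. Relations of members with marker scores whose Pearson coefficient passed numbered 2 as reported, 1 within lane 1 and 0 without the 4 doubted libraries, and by Spearman 2, 0 and 0; the cause was not tested, and those fits hold fewer libraries. Settings that leave out the low Bckdhb libraries, or those with Hcrt under 2 FPKM, and the correlations without doubted libraries were chosen after seeing the data. Over all genes, BCAA200 against BCAA100 called 2 genes as reported, 49 without the 4 doubted libraries, 5 with quantile normalization, 5 in a fit on those diets alone, 0 with regional or glial marker scores as covariates and 0 to 41 with 1 library left out (41 without BCAA50 female replicate 1); BCAA50 against BCAA100 called 0 as reported, 0 to 19 by setting and 0 to 23 with 1 library left out, and BCAA20 against BCAA100 0, 0 to 5 and 0 to 2. With the replicate number as a block, 0 members were called in each comparison, and BCAA200 against BCAA100 called 0 genes. The block changed no other call, and male against female cannot be fitted with it. The slopes on intake within diet moved from -2.34 to 0.72 for Bckdhb, from 0.24 to -0.20 for Ppm1k and from 0.67 to 0.13 for Bcat2. They moved from 0.03 to 0.50 for Bckdha and from -0.02 to 0.17 for Dld. By the design text the replicate numbers name separate animals. Of 36 same-numbered pairs 6 had correlated deviations above 0.1. Their median was 0.02, against -0.006 for the 72 other pairs of the same sex. Of 24 libraries 7 correlated best with their own number. With 3 animals in each group this check cannot exclude a shared block. Depth is unknown, so counting error could not be set beside the levels of Bcat2, at 2.58 FPKM, or the low Bckdhb values.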
